A study of Rattus norvegicus with 16 samples.

Results

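Messenger RNA levels of the proteasome genes were measured in rat hepatoma H35 cells in which Pdrg1, a small prefoldin-like protein, had been silenced. The genes were taken by name, as every gene probe on the array whose symbol is Psm, a letter from a to g and a number. This rule found 53 probes of 48 gene names among 30367 probes and 26269 names. Psmc3ip, a recombination factor named for its binding to Psmc3, is not a subunit and was set aside, which left 47 genes. They comprise 8 core alpha subunits, 7 core beta subunits, 3 inducible catalytic subunits, 1 thymus catalytic subunit, 6 cap ATPases, 11 cap subunits without ATPase activity, 3 cap assembly chaperones, 4 activators, 1 inhibitor and 3 core assembly chaperones.

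All groups were H35 cells, a rat hepatoma line, that carried an shRNA plasmid and had been selected with G418. CN-10 is a stable clone with a negative control sequence, 4-18 is a stable clone with the plasmid shRNA4, and 3-44 is a stable clone with the plasmid shRNA3. The shRNA3T group is a pool of cells transfected with shRNA3 and enriched with 1.8 mg/ml G418 for 2 weeks, whereas the stable clones had a further 2 weeks at 4 mg/ml. Each stable group is 1 clone, so its 4 biological replicates repeat that clone and not the silencing. CN-10 is the control of all 3 comparisons, although the pool went through a shorter selection than CN-10.

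The proteasome degrades proteins tagged with ubiquitin. Its core particle is a barrel of alpha and beta rings whose proteolytic sites lie on the beta subunits Psmb5, Psmb6 and Psmb7, and its regulatory cap binds, unfolds and feeds in the substrate with a ring of ATPases and a set of scaffold and receptor subunits. In interferon-treated and immune cells the inducible subunits Psmb8, Psmb9 and Psmb10 take the places of Psmb5, Psmb6 and Psmb7 in newly built cores, forming the immunoproteasome, which favours peptides for presentation by major histocompatibility class I. Psme1 and Psme2 form an interferon-inducible activator ring, and the transcription factor Nfe2l1 raises subunit genes together when proteasome activity is short. Psmd10, also called gankyrin, is an assembly chaperone of the cap that is known to be raised in liver cancers.

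The sequences that the hybridization read are shown for 5 genes on which the results turn. Each is the array probe, 60 bases long, with its position on the rat build rn4 as given in the array files, where no exon is named. The Psme2 probe spans more genome than its own length, in separate pieces, while the others lie on 1 uninterrupted stretch.
Psmd10, chrX:128790805-128790864, plus strand: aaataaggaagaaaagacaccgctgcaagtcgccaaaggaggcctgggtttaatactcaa
Psmb5, chr15:32690134-32690193, minus strand: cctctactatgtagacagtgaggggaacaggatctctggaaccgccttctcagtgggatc
Psmb8, chr20:4787980-4788039, minus strand: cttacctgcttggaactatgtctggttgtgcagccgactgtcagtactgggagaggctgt
Psmb9, chr20:4806341-4806400, plus strand: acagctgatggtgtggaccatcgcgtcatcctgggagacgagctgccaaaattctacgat
Psme2, chr15:33723033-33723182, minus strand: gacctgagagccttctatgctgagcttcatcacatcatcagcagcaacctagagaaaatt

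RefSeq promoters of the build GRCr8, 250 bases before to 50 after each start, were found for 41 of the 47 genes and not for Psma3l, Psma7, Psmb11, Psmd12, Psmd14 and Psmd6. GAAA followed after any 2 bases by GAAA, the core of interferon response elements, stood on either strand in 7 of these 41 (17.1%), against 3.92% of all 33469 promoters. The matches of Psmb8, Psmb10 and Psme2 are shown because these are the inducible genes that had one. Each line has 30 bases of the gene's strand with the match in capitals, which is reversed in Psmb8.
Psmb8, chr20:4657016-4657045, minus strand: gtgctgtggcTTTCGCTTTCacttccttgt
Psmb10, chr19:50743346-50743375, minus strand: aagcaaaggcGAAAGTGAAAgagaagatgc
Psmb10, chr19:50743290-50743319, minus strand: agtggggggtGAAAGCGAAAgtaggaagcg
Psme2, chr15:33052785-33052814, minus strand: cctggagagtGAAAGCGAAAgctggggctg
The other genes with a match were Psma4, Psmb3, Psmd7 and Psmg4, so the letters are not limited to the inducible genes. Of the other inducible genes, Psme1 and Psmb9 held none in their windows. That of Psmb9 overlaps the window of the peptide transporter gene Tap1 by 44 bases on the opposite strand, their starts being 456 bases apart. The Tap1 window held a match in reverse at -121, counted in bases from the Tap1 start, between the starts but outside the Psmb9 window.

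CCAAT, the box bound by NF-Y, stood on either strand in 20 of the 41 promoters (48.8%), against 37.5% of all promoters. TGANNNNGC, the core of antioxidant response elements, stood in 51.2% against 40.5%, and TATAAA in 9.76% against 14.2%. Psmd10, whose mRNA was lower in all 3 silenced groups, has CCAAT forward at -232 and in reverse at -49 and -26, counted in bases from its start. The 200 bases that follow hold the last 2 of these, in capitals.
Psmd10, chrX:109453606-109453805, minus strand: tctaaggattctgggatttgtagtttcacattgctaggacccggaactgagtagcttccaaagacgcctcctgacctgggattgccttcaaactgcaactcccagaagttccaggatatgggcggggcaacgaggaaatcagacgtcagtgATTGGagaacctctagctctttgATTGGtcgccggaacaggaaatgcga
These motifs share no base with one another in the printed stretches. Of the genes that were lower against CN-10 and had a promoter, CCAAT stood in 3 of 12 in 4-18, 2 of 5 in 3-44 and 4 of 9 in shRNA3T. It stood in 2 of 5 genes higher in 4-18, and in neither Psma6 nor Psmd2, which were also lower in all 3 silenced groups. A match describes letters in a window and no binding was measured.

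The 4 groups lay on separate slides, and 4-18 was read on a different scan day, so effects of slide and of group cannot be told apart. The 4-18 arrays were dimmer, with a 75th percentile of processed signal of 1613 to 1878 against 2632 to 3548 in CN-10, 2290 to 3647 in 3-44 and 2573 to 3629 in shRNA3T. They also had 53.1% to 64.1% of gene spots well above background against 64.7% to 74.3% on the others. Pdrg1 itself was at 13.41, 13.88, 13.51 and 13.77 on the CN-10 arrays in log2 intensity and at 11.57 to 13.34, 11.89 to 12.95 and 12.39 to 12.97 in 4-18, 3-44 and shRNA3T. All 12 silenced arrays lay below the 4 control arrays, although the adjusted p was 0.13, 0.10 and 0.14. The liver marker Alb was at 17.1 to 17.3 in every group mean, and no array had Ptprc, which defines leukocytes, or Pecam1 of endothelium above background. Of the 8 leukocyte markers, Lyz2 and Itgam were above background on all 16 arrays, Cd68 and Csf1r on 15, and Cd74, Cd3e and Cd79b on 1, while 2 of the 7 endothelial and fibroblast markers were above it on all 16. Of 11 hepatocyte or hepatoma markers, 1 was higher and 5 lower in 4-18, where 11.6% and 12% of all probes were. In 3-44, 3 were higher against 3.48% of all probes. In shRNA3T, 3 were higher and 1 lower against 5% and 6.85%. Unlike Alb, Ttr was at 13.10 to 14.22 in CN-10, where 1 array had no value. It was at 16.46 to 17.00 in 4-18, 15.56 to 17.07 in 3-44 and 15.85 to 16.52 in shRNA3T. Apoa1 was at 9.55 to 10.73 in CN-10, 7.49 to 8.67 in 4-18, 12.16 to 12.57 in 3-44 and 10.02 to 10.32 in shRNA3T. Of the endothelial and fibroblast markers 1 was higher in shRNA3T.

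Levels below are log2 intensities after background correction and quantile normalization, given for replicates 1 to 4 in turn, and a difference of 1 is a 2-fold change. A gene was called changed at an adjusted p under 0.05 from limma, adjusted over all probes. Levels were compared within a probe only. Because RNA was taken from whole cultures, fewer cells with a transcript and less of it per cell cannot be told apart. Of the 47 genes, 46 were well above background on all 16 arrays, as 44.8% of all probes were. Psmb11, which is known from the thymus, stayed at means of 6.53 to 6.68, near the dim end, and its brighter probe was well above background on 4, 1, 3 and 3 arrays of CN-10, 4-18, 3-44 and shRNA3T.

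Against CN-10, 14 of the 47 proteasome genes (29.8%) were lower in 4-18 where 12% of all probes were, and 5 (10.6%) were higher where 11.6% were. At least 2-fold and called were 5 genes, all lower, and 5.91% of all probes in either direction. In 3-44, 5 genes (10.6%) were lower against 4.37% of all probes and 1 was higher against 3.48%. None of the 47 was called with a 2-fold change in 3-44 by limma, against 1.40% of all probes. An unadjusted p under 0.05 was reached by 11, and no share of all probes at that limit is given. In shRNA3T, 10 genes (21.3%) were lower against 6.85% of all probes, 1 was higher against 5%, and 1 was changed at least 2-fold against 2.29%. Among probes above background on all arrays, a set of levels more like these genes, 16.9%, 7.47% and 12.4% were lower and 21.1%, 6.46% and 8.71% were higher in 4-18, 3-44 and shRNA3T. The median difference of the 47 genes was -0.27, -0.08 and -0.23, beside 0.006, -0.003 and -0.007 over all probes. With arrays scaled to the 75th percentile of processed signal instead, the median was -0.22, -0.05 and -0.22 beside 0.20, -0.04 and -0.23 over all probes. With that scaling centred on the median of probes above background on all arrays, a choice made after seeing the data, it was -0.27, -0.07 and -0.23. In the pool these genes then lay no lower than the array as a whole, but lower than those brighter probes. In the deposited table, which was not scaled between arrays, 25 genes were lower and 0 higher in 4-18, where 14% of all probes were lower and 1.12% higher.

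**Figure D1:**
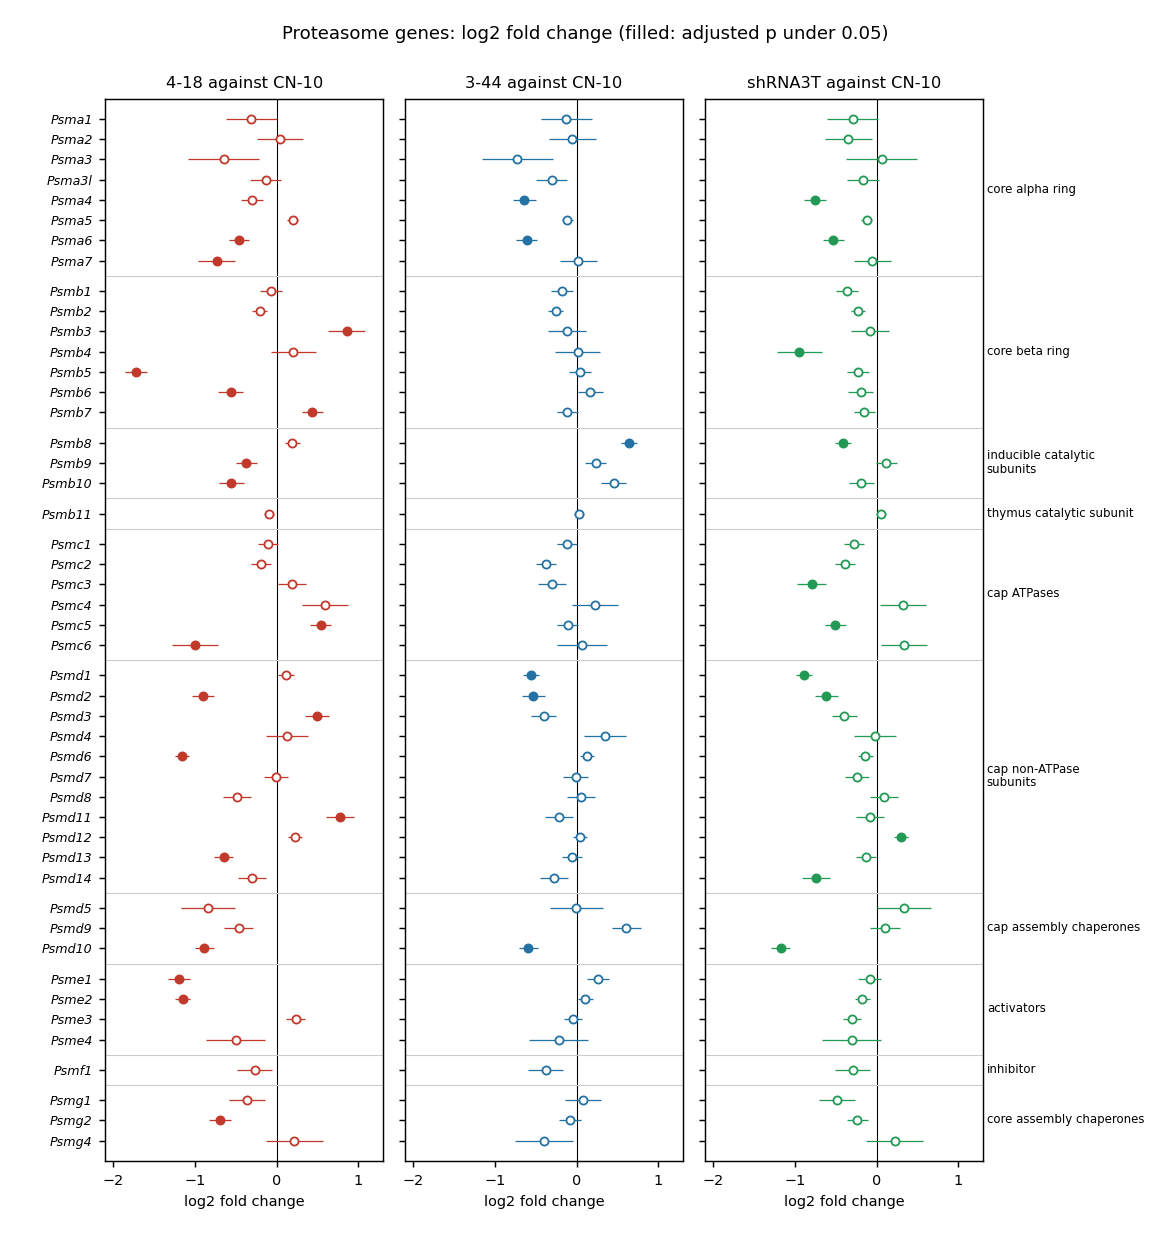
Log2 difference from CN-10 with its standard error for each of the 47 proteasome genes, ordered by class, in 4-18, 3-44 and shRNA3T (4 arrays a group); filled points were called at adjusted p under 0.05. In 4-18 the lower points include Psmb5 at -1.72, and in shRNA3T the point of Psmd10 at -1.17 lies lowest.

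Psmd10, Psma6 and Psmd2 were the genes called lower in all 3 comparisons, which share the CN-10 arrays. Psmd10 was at 13.14, 12.95, 13.07 and 12.87 in CN-10. It was at 12.35, 11.93, 12.14 and 12.05 in 4-18, at 12.57, 12.37, 12.46 and 12.27 in 3-44, and at 11.51, 11.92, 11.996 and 11.91 in shRNA3T. No silenced array reached the lowest control array, and the pool had the lowest mean, although its arrays overlapped those of 4-18. The difference was -0.89 ± 0.12 (SE, n = 4 a group; adjusted p = 5.03e-05), -0.59 ± 0.12 (adjusted p = 0.00512) and -1.17 ± 0.12 (adjusted p = 9.63e-06), or 0.540, 0.664 and 0.443 of the control level. Between the 2 shRNA3 groups, 3-44 was higher by 0.58 (adjusted p = 0.00446), while 4-18 against the pool was at 0.29 and not called (adjusted p = 0.106).

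Psma6, a core alpha subunit, was at 16.38, 16.23, 16.20 and 16.18 in CN-10. It was at 15.997, 15.59, 15.72 and 15.83 in 4-18, at 15.87, 15.56, 15.54 and 15.57 in 3-44, and at 16.12, 15.61, 15.59 and 15.55 in shRNA3T. All 12 silenced arrays lay below the control arrays, with replicate 1 the highest of each silenced group. The differences of -0.46 ± 0.13, -0.61 ± 0.13 and -0.53 ± 0.13 had adjusted p-values of 0.0147, 0.00685 and 0.0118. With arrays scaled to the 75th percentile they were not called in 3-44 (-0.14) or in shRNA3T (-0.33). Psmd2, a scaffold subunit at the base of the cap that receives ubiquitin carriers, had 3 usable CN-10 arrays at 15.92, 16.31 and 16.24, since its spot on the first was an outlier. It was at 15.32, 15.11, 15.08 and 15.49 in 4-18, at 15.88, 15.62, 15.55 and 15.44 in 3-44, and at 15.75, 15.55, 15.48 and 15.37 in shRNA3T. Again no silenced array reached the control arrays. The 4-18 mean was lowest, but its arrays overlapped those of 3-44 and shRNA3T and neither difference was called (adjusted p = 0.0519 and 0.143). The differences were -0.90 ± 0.14 (adjusted p = 0.000256), -0.53 ± 0.14 (adjusted p = 0.0295) and -0.62 ± 0.14 (adjusted p = 0.00884). The values of Psmd2 are printed because it was called in all 3, a choice made after they were seen. In 3-44 the call of Psmd2 was lost without CN-10 replicate 3 or 4 or 3-44 replicate 2, 3 or 4.

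**Figure D2:**
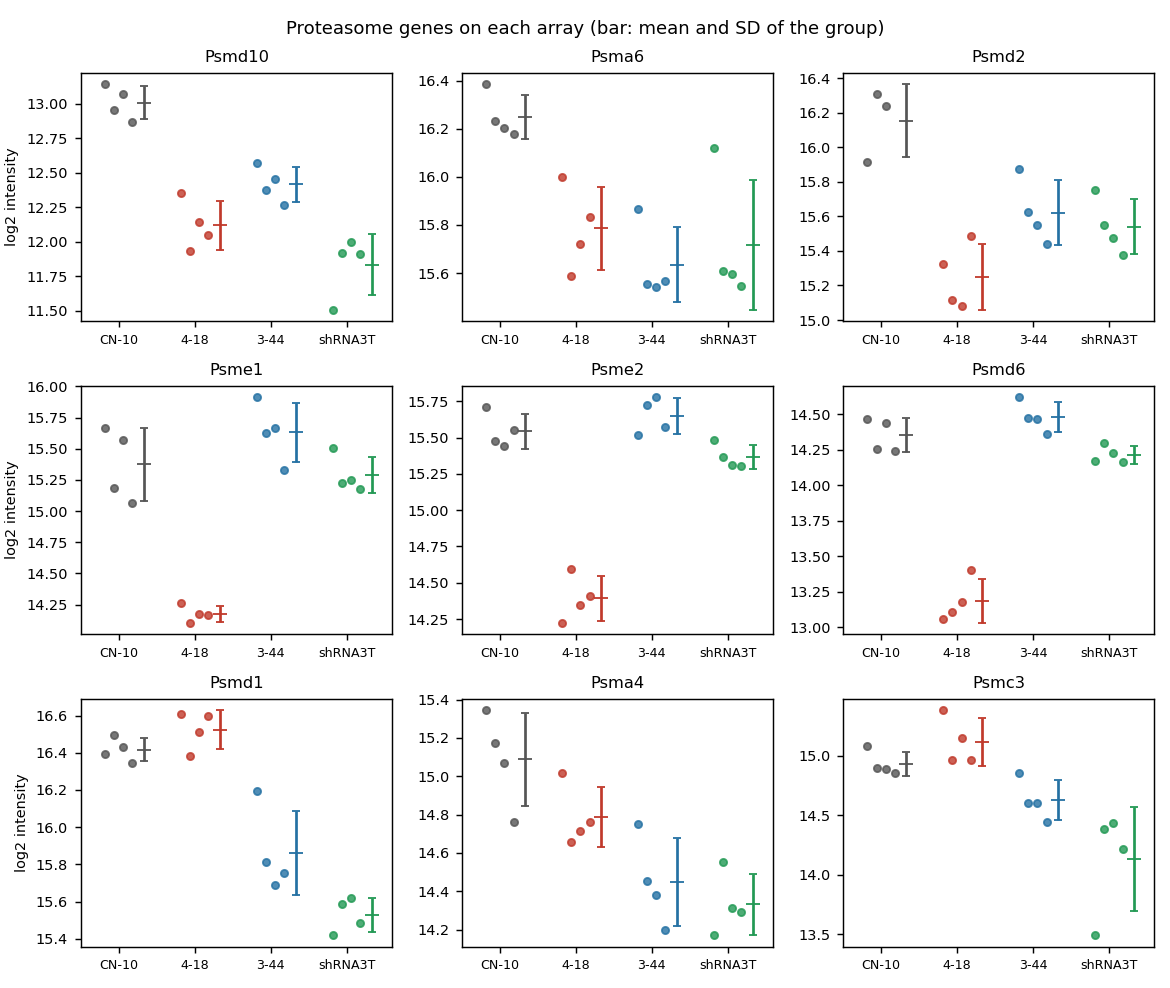
Log2 intensity of 9 proteasome genes on each of the 16 arrays, 4 a group, with the group mean and SD as bars; 1 CN-10 array has no value for Psmd2. For Psmd10, Psma6 and Psmd2 the 12 silenced arrays lie below every control array, whereas Psme1, Psme2 and Psmd6 are called lower in 4-18 only.

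The active sites of the core were read on Psmb5, Psmb6 and Psmb7. Psmb5, the subunit with chymotrypsin-like activity, was at 15.73, 15.60, 15.53 and 15.58 in CN-10 and at 13.998, 14.17, 13.77 and 13.63 in 4-18. It was at 15.89, 15.48, 15.68 and 15.56 in 3-44 and at 15.74, 15.33, 15.27 and 15.18 in shRNA3T. The 4-18 arrays stood far below all others, while the shRNA3 arrays overlapped the control. The difference in 4-18 was -1.72 ± 0.14 (adjusted p = 3.5e-07), 0.303 of the control level, and it was the largest among the 47 genes in any comparison with CN-10. It was 0.04 in 3-44 and -0.23 in shRNA3T, neither called, and directly against 3-44 the 4-18 clone was at -1.76.

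Psmb6, with caspase-like activity, was at 12.96, 12.95, 13.49 and 13.42 in CN-10 and at 12.96, 12.27, 12.54 and 12.79 in 4-18. It was at 13.66, 13.20, 13.34 and 13.29 in 3-44 and at 13.08, 13.06, 12.93 and 12.96 in shRNA3T. The 4-18 arrays overlapped the lower control arrays, and the fit gave -0.57 ± 0.16 (adjusted p = 0.016), a call lost without CN-10 replicate 3 or 4. Psmb7, with trypsin-like activity, was at 13.02, 13.48, 13.62 and 13.55 in CN-10 and at 13.79, 14.005, 13.92 and 13.70 in 4-18. It was at 13.60, 13.25, 13.20 and 13.18 in 3-44 and at 13.32, 13.22, 13.28 and 13.26 in shRNA3T. In 4-18 Psmb7 thus lay above every control array where Psmb5 lay below, by 0.43 ± 0.13 (adjusted p = 0.0201), although the call was lost without CN-10 replicate 1 or 4-18 replicate 2 and the unscaled deposited values gave -0.29.

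Against CN-10, the inducible counterparts were called in different directions, with 2 lower in 4-18, 1 higher in 3-44 and 1 lower in shRNA3T. In 3-44 all 3 differences were positive, and the median of the 3 genes on each array, relative to the mean of CN-10, was 0.31 to 0.72 against -0.11 to 0.10 on the control arrays. Psmb8, which replaces Psmb5, was at 12.28, 12.42, 12.33 and 12.36 in CN-10 and at 12.65, 12.44, 12.60 and 12.47 in 4-18. It was at 13.29, 12.80, 12.90 and 12.96 in 3-44 and at 11.80, 11.94, 11.98 and 12.02 in shRNA3T. The clone with shRNA3 lay above the control and the pool with the same shRNA lay below it, with no overlap on either side. The differences were 0.64 ± 0.10 in 3-44, with an adjusted p of 0.000597, -0.41 ± 0.10 in the pool (adjusted p = 0.00964) and 0.19 ± 0.10 in 4-18 (adjusted p = 0.178). Scaled to the 75th percentile, the difference in shRNA3T was -0.11 and not called. Directly, 3-44 was 1.05 above shRNA3T (adjusted p = 7e-06).

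Psmb9, which replaces Psmb6, was at 13.11, 12.91, 12.96 and 12.84 in CN-10 and at 12.81, 12.59, 12.52 and 12.41 in 4-18. It was at 13.46, 13.08, 13.19 and 13.02 in 3-44 and at 13.43, 12.97, 12.93 and 12.97 in shRNA3T. The 4-18 arrays were the lowest, by 0.03 from the nearest control array, and the fit gave -0.37 ± 0.13 (adjusted p = 0.0455), a call lost without any 1 of 12 arrays, which were the CN-10 arrays, replicates 2 to 4 of 4-18 and of shRNA3T, and replicates 2 and 3 of 3-44. Psmb10, which replaces Psmb7, was at 13.08, 12.61, 13.36 and 12.87 in CN-10 and at 12.41, 12.07, 12.58 and 12.63 in 4-18. It was at 13.70, 13.37, 13.29 and 13.38 in 3-44 and at 12.90, 12.71, 12.78 and 12.77 in shRNA3T. The control arrays of Psmb10 were spread widely (12.98 ± 0.32, SD, n = 4), and the differences were -0.56 ± 0.15 in 4-18 (adjusted p = 0.0141) and 0.45 ± 0.15 in 3-44 (adjusted p = 0.0888). The call in 4-18 was lost with scaling to the 75th percentile (-0.17), with array weights (-0.45), with only the arrays of the 2 groups and without replicate 1 of every group (-0.52). All 3 inducible subunits were lower in 4-18 than in 3-44 when the clones were compared directly, by -0.45 for Psmb8, -0.60 for Psmb9 and -1.01 for Psmb10 (adjusted p = 0.00303, 0.00285 and 0.000185).

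**Figure D3:**
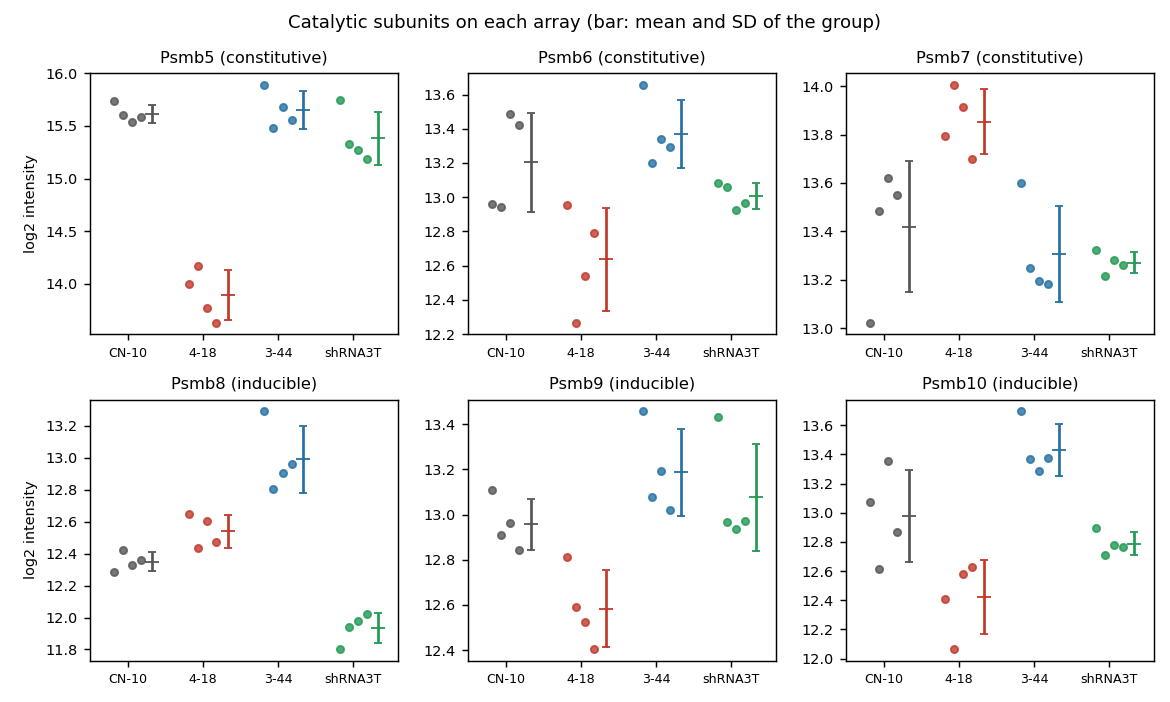
Log2 intensity of the catalytic subunits on each array, with Psmb5, Psmb6 and Psmb7 in the top row and their inducible counterparts Psmb8, Psmb9 and Psmb10 below (4 arrays a group, bars are mean and SD). Psmb5 falls to 13.63 to 14.17 in 4-18, and Psmb8 is high in 3-44 and low in shRNA3T.

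The balance of each inducible subunit with its counterpart was taken within each array, as the difference of their log2 values, and compared with CN-10. Psmb8 over Psmb5 was 1.91 higher in 4-18 and 0.60 higher in 3-44, with every array above the control arrays, and differed by -0.18 in shRNA3T. Psmb10 over Psmb7 differed by -0.99 in 4-18 and was 0.57 higher in 3-44, with no overlap with the control in either, and differed by -0.04 in shRNA3T. From the processed signal scaled to the 75th percentile, Psmb10 over Psmb7 differed by -0.23 in 4-18. That setting also replaced the corrected mean signal, and scaling all values of an array alike cannot move a difference within it. Psmb9 over Psmb6 differed by 0.19, 0.06 and 0.32 and overlapped the control in all 3, and in 4-18 it turned to -0.37 under that setting. The 4 differences without overlap had the smallest p that an exact two-sided permutation test of 4 against 4 arrays can give, 0.0286, and 0.0643 after adjustment over the 9 tests, so none passed.

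The activator subunits Psme1 and Psme2 were also lower in 4-18. Psme1 was at 15.67, 15.19, 15.57 and 15.06 in CN-10 and at 14.26, 14.11, 14.17 and 14.17 in 4-18. It was at 15.91, 15.63, 15.66 and 15.33 in 3-44 and at 15.50, 15.22, 15.25 and 15.18 in shRNA3T. Its partner Psme2, read on 10 spots an array, was at 15.71, 15.47, 15.44 and 15.55 in CN-10 and at 14.23, 14.60, 14.34 and 14.41 in 4-18. The 4-18 arrays lay below every control array for both genes. Psme2 was at 15.52, 15.73, 15.78 and 15.57 in 3-44 and at 15.48, 15.37, 15.31 and 15.31 in shRNA3T. The differences in 4-18 were -1.20 ± 0.14 for Psme1 (adjusted p = 1.59e-05) and -1.15 ± 0.09 for Psme2 (adjusted p = 3.94e-07), 0.436 and 0.451 of the control level. Scaled to the 75th percentile, Psme1 was still called, at -0.66. Against 3-44 they were -1.46 and -1.25, both called. Psme3, the nuclear member of this family, was not called against CN-10 in any group (0.23, -0.05 and -0.30).

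Psme4, a large activator of a separate family, was read differently by its probes. The probe that stands for the gene by its brightness, at rn4 chr14:111990483-111990542 with 1 spot, gave -0.50 ± 0.36 in 4-18 (adjusted p = 0.372). A probe of 10 spots at chr14:111997089-111997148 was at 11.002, 10.85, 10.83 and 10.85 in CN-10 and at 11.79, 11.89, 11.76 and 11.60 in 4-18, a difference of 0.88 ± 0.08 (adjusted p = 1.36e-06). On the second probe 3-44 (10.95, 10.87, 10.69 and 10.83) and shRNA3T (10.86, 10.91, 10.76 and 10.76) stayed among the control values. The direction for Psme4 in 4-18 therefore depends on the probe, and its count above follows the first. Psmf1, the inhibitor, was not called (-0.27, -0.38 and -0.29).

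**Figure D4:**
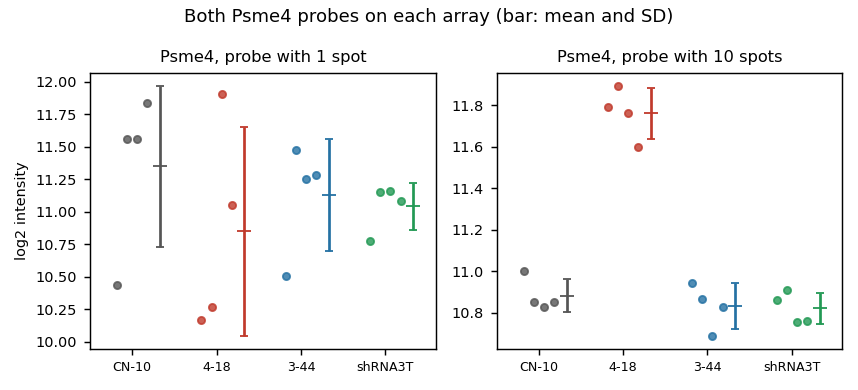
Log2 intensity of the 2 Psme4 probes on each array, 4 arrays a group, with group mean and SD as bars. The probe with 10 spots is higher in 4-18 by 0.88, whereas the probe with 1 spot varies widely within groups and is not called.

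Of the 17 cap subunits, Psmd6, a lid subunit, fell most in 4-18. On 10 spots an array it was at 14.47, 14.25, 14.44 and 14.24 in CN-10 and at 13.06, 13.10, 13.18 and 13.40 in 4-18. It was at 14.62, 14.47, 14.46 and 14.36 in 3-44 and at 14.17, 14.30, 14.22 and 14.16 in shRNA3T. The 4-18 arrays lay apart from all the others, at -1.16 ± 0.09 against CN-10 (adjusted p = 2.14e-07). Psmc6, an ATPase of low signal, was at 10.84, 9.75, 10.27 and 10.14 in CN-10 and at 8.54, 9.27, 9.61 and 9.58 in 4-18. It was at 10.18, 10.02 and 10.74 on the 3 usable arrays of 3-44 and at 10.95, 10.21, 10.26 and 10.91 in shRNA3T. Its arrays varied by more than those of Psmd6, and the difference in 4-18 was -1.003 ± 0.28 (adjusted p = 0.0187), lost without replicate 1 of CN-10 or of 4-18.

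Psmd13, of the lid, was also lower in 4-18 (-0.65, adjusted p = 0.000862), as were the core assembly chaperone Psmg2 (-0.70, adjusted p = 0.0011) and the core alpha subunit Psma7 (-0.73, adjusted p = 0.0273), the last lost without any of CN-10 replicates 1 to 3 or 4-18 replicates 1 and 2. Higher in 4-18 were Psmb3, a beta subunit without a proteolytic site (0.85 ± 0.23, adjusted p = 0.0137), the lid subunits Psmd11 (0.77 ± 0.17, adjusted p = 0.00378) and Psmd3 (0.49 ± 0.15, adjusted p = 0.0283), and the ATPase Psmc5 (0.54 ± 0.13, adjusted p = 0.00565). Psmb3 rose from 14.07, 14.50, 14.56 and 14.70 to 15.58, 15.22, 15.29 and 15.16, without overlap. The call of Psmd3 was lost without CN-10 replicate 3 or 4 or 4-18 replicate 1, 3 or 4, and the unscaled deposited values gave -0.27 for Psmd3 and -0.03 for Psmc5. The core and the cap each held genes called higher and genes called lower in this clone under quantile normalization.

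Psmd1 and Psma4 were called lower in both groups with shRNA3. Psmd1, the other large scaffold of the base, was at 16.39, 16.50, 16.43 and 16.35 in CN-10 and at 16.61, 16.38, 16.51 and 16.60 in 4-18. It was at 16.19, 15.81, 15.69 and 15.75 in 3-44 and at 15.42, 15.58, 15.62 and 15.48 in shRNA3T. Both shRNA3 groups lay below every control and 4-18 array, the pool lower than the clone. The differences from CN-10 were -0.56 ± 0.10 (adjusted p = 0.0025) and -0.89 ± 0.10 (adjusted p = 2.83e-05), while 4-18 was at 0.11, and the 4-18 clone was 0.66 above 3-44 when tested directly.

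Psma4, a core alpha subunit, was at 15.34, 15.17, 15.07 and 14.76 in CN-10 and at 15.02, 14.66, 14.71 and 14.76 in 4-18. It was at 14.75, 14.45, 14.38 and 14.20 in 3-44 and at 14.17, 14.55, 14.31 and 14.29 in shRNA3T. The shRNA3 arrays lay below all control arrays, in 3-44 by only 0.01 at the nearest, and 11 of the 12 silenced arrays did. The fit called it lower in 3-44 (-0.64 ± 0.14, adjusted p = 0.00905) and the pool (-0.76 ± 0.14, adjusted p = 0.0018).

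Psmc3 and Psmb4 were called lower than CN-10 in the pool and in neither clone, and of these Psmb4 also differed between 3-44 and the pool (0.96, adjusted p = 0.0394). Psmc3, an ATPase, was at 15.08, 14.90, 14.89 and 14.85 in CN-10 and at 15.38, 14.96, 15.15 and 14.97 in 4-18. It was at 14.85, 14.60, 14.60 and 14.44 in 3-44 and at 13.49, 14.39, 14.44 and 14.22 in shRNA3T, where the first array lay lowest. The pool differed by -0.80 ± 0.17 (adjusted p = 0.00641). Psmb4, a beta subunit without a proteolytic site, was at 15.46, 14.99, 15.16 and 15.14 in CN-10 and at 15.29, 15.40, 15.48 and 15.39 in 4-18. It was at 15.10, 15.19, 15.36 and 15.14 in 3-44 and at 14.52, 13.14, 15.09 and 14.21 in shRNA3T. The pool was spread over almost 2 log2 units and overlapped the control, so its -0.95 ± 0.28 (adjusted p = 0.0379) ranged from -1.23 to -0.58 as single arrays were left out, and the call was lost without any of the CN-10 arrays, 3-44 replicate 2 or shRNA3T replicate 4.

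Psmd14, the deubiquitinase of the lid, was lower in the pool (-0.74 ± 0.17, adjusted p = 0.0099), as was Psmc5 (-0.51 ± 0.13, adjusted p = 0.0157), which was higher in 4-18. Psmc5 was at 15.61, 16.11, 16.02 and 16.01 in CN-10, at 16.21, 16.46, 16.59 and 16.66 in 4-18, at 15.74, 15.86, 15.83 and 15.89 in 3-44 and at 15.13, 15.54, 15.56 and 15.50 in shRNA3T. The 4-18 clone and the pool lay on opposite sides of the control, 1.05 apart (adjusted p = 3.02e-05), and the call in the pool was lost without CN-10 replicate 2. The lid subunit Psmd12 was the only one of the 47 genes called higher in the pool (0.30 ± 0.09, adjusted p = 0.0377), a call lost without any of the shRNA3T arrays or CN-10 replicates 1 to 3.

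The silenced groups were also compared with each other. Between 4-18 and 3-44, 7 of the 47 genes were higher in 4-18, where 12.1% of all probes were, 14 were lower, where 10.0% were, and 7 differed at least 2-fold, all lower, against 4.81%. The 7 were Psmb5, Psmb10, Psmc6, Psmd6, Psmd9, Psme1 and Psme2. For Psmd9 this rests on the brighter of 2 probes (-1.07), as the other gave -0.05 (adjusted p = 0.893), and against CN-10 they gave -0.47 (with 3 CN-10 arrays) and 0.48 in 4-18, neither called. Between 4-18 and shRNA3T, 12 were higher in 4-18 against 11.2% of all probes, 12 were lower against 8.94%, and 7 differed at least 2-fold against 4.32%. Between the 2 shRNA3 groups, 5 genes were higher in 3-44 against 5.33% of all probes, namely Psmb4, Psmb8, Psmb10, Psmd1 and Psmd10, and 1 of these differed at least 2-fold against 2.00%. With the replicate number as a block, 6 were higher in 3-44 against 5.97% of all probes and 0 lower against 6.30%. Psmd1 was then not called (adjusted p = 0.0584), and Psmc5 and Psme1 were (0.40 and 0.34, adjusted p = 0.00514 and 0.0321). By limma none was lower in 3-44 than in the pool against 5.31% of all probes, and with array weights 2 were lower, where 12.9% of all probes were. An unadjusted p under 0.05 was reached by 16 genes in either direction, and no share of all probes at that limit is given.

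By class, the counts of genes called lower in 4-18, 3-44 and shRNA3T were 2, 2 and 2 of the 8 core alpha genes and 2, 0 and 1 of the 7 core beta genes. They were 2, 0 and 1 of the 3 inducible subunits and 1, 0 and 2 of the 6 ATPases. They were 3, 2 and 3 of the 11 other cap subunits, 1, 1 and 1 of the 3 cap assembly chaperones, 2, 0 and 0 of the 4 activators, and 1, 0 and 0 of the 3 core assembly chaperones. Of all probes 12%, 4.37% and 6.85% were lower, and classes of this size cannot be set apart from those shares. In no class and group were all members called lower, although whole classes had differences below 0, such as the 7 core beta genes and the 4 activators in shRNA3T. The genes without a call against CN-10 in any group were Psma1, Psma2, Psma3, Psma3l and Psma5 of the alpha ring, Psmb1 and Psmb2 of the beta ring, Psmb11, Psmc1, Psmc2 and Psmc4 of the ATPases, Psmd4, Psmd7 and Psmd8 of the other cap subunits, the chaperones Psmd5 and Psmd9, the activators Psme3 and Psme4, the inhibitor Psmf1, and Psmg1 and Psmg4. RefSeq gives Psma3l as another name of Psma3, so those probes may read 1 gene.

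Scaling the processed signal to the 75th percentile also ended other calls. In 4-18 these were Psmb6 (-0.17), Psmb7 (0.06), Psma7 (-0.22) and Psmd3 (0.37), in 3-44 Psmd1 (-0.40), and in shRNA3T Psmc5 (-0.30) and Psmd12 (0.17). Psmd2 (-0.42), Psmd13 (-0.38) and Psmg2 (-0.38) were still called in 4-18, at smaller differences, as were Psma4 (-0.49) and Psmd1 (-0.50) in shRNA3T. Psmc6 in 4-18 was not called with array weights (-0.79) or without replicate 1 of every group (-0.57).

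The factors known to act on subunit genes were read as a list of 7, of which 6 were on the array. Nfe2l1 was at 9.33, 9.79, 9.76 and 9.72 in CN-10 and at 10.33, 10.60, 10.51 and 10.46 in 4-18. It was at 9.98, 10.33, 10.31 and 10.10 in 3-44 and at 10.47, 10.08, 10.07 and 10.06 in shRNA3T. Every silenced array lay above the control arrays, by 0.83, 0.53 and 0.52 on average (adjusted p = 0.00017, 0.015 and 0.012). Nfya, the subunit of NF-Y that contacts CCAAT, was at 9.23, 9.16, 8.96 and 8.93 in CN-10. It was at 8.15, 7.95, 8.06 and 7.98 in 4-18, at 7.87, 8.31, 8.26 and 8.17 in 3-44, and at 8.15, 7.93, 7.91 and 7.73 in shRNA3T. Every silenced array lay below the control, by -1.04, -0.92 and -1.14 (adjusted p = 6.9e-06, 9.7e-05 and 8e-06). Nfyb was lower too (-0.52, -0.56 and -0.66, adjusted p = 0.0062, 0.011 and 0.0022), and Nfyc, Nfe2l2 and Ddi2 were not called in any group.

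**Figure D5:**
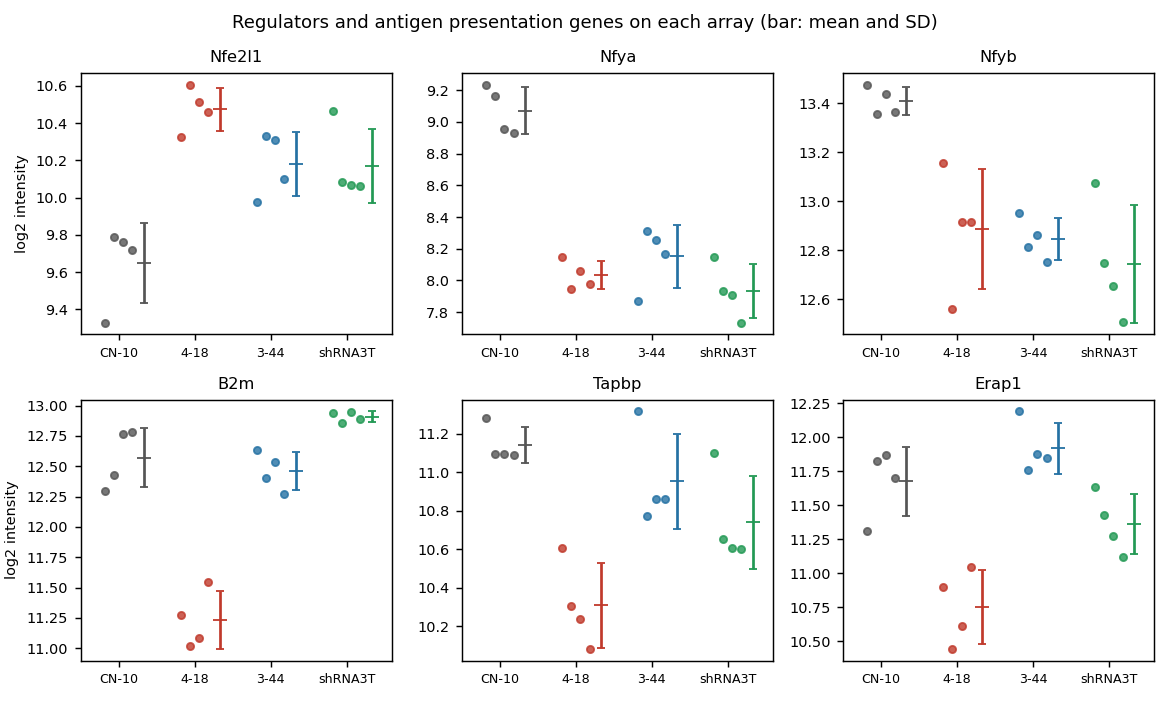
Log2 intensity of 3 transcription factor genes (Nfe2l1, Nfya, Nfyb) and 3 antigen presentation genes (B2m, Tapbp, Erap1) on each array, 4 arrays a group, with group mean and SD as bars. Nfe2l1 is above and Nfya below the control on all 12 silenced arrays, and B2m is lowest in 4-18.

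Genes of antigen presentation, whose products receive the peptides of the immunoproteasome, were read on 11 of 12 listed genes. In 4-18, 3 were lower and none higher, where 12% of all probes were lower and 11.6% higher. Whether 3 of 11 exceeds that share was not tested. B2m, the light chain of class I molecules, was at 12.30, 12.43, 12.76 and 12.78 in CN-10 and at 11.28, 11.02, 11.09 and 11.55 in 4-18, a difference of -1.34 (adjusted p = 2.8e-06). The peptide trimming enzyme Erap1 was at -0.93 and the loading factor Tapbp at -0.83 (adjusted p = 0.00052 each). Neither of the 2 shRNA3 groups had a lower gene of this list against CN-10, where 4.37% and 6.85% of all probes were lower. Irf9 was higher in the pool (0.65, adjusted p = 0.012), where 5% of all probes were. Tap1, whose promoter window overlaps that of Psmb9, was not called (0.17, -0.11 and -0.18). Leukocytes also carry the inducible subunits, and the summed intensity of 8 leukocyte markers was 1936 to 2231 in CN-10, 1494 to 1842 in 4-18, 3545 to 4255 in 3-44 and 1787 to 3471 on the 3 arrays of shRNA3T that had a value for each. Without Lyz2 the sums were 1014 to 1105, 819 to 1076, 981 to 1110 and 904 to 968 in the same order, and those of 3-44 and CN-10 overlapped. Of these markers 1 was lower in 4-18 and 1, Lyz2, was higher in 3-44 (1.47, adjusted p = 0.0045), and their part in the values of Psmb8 was not tested.

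Proteins that dock on the proteasome or build it were read on 12 of 15 listed genes. Of all probes, 11.6% were higher and 12% lower in 4-18, 3.48% and 4.37% in 3-44, and 5% and 6.85% in shRNA3T. Whether the calls below exceed these shares was not tested. In 4-18 the ubiquitin ligase Ubr4 (0.56, adjusted p = 0.016) and the shuttle Ubqln4 (0.51, adjusted p = 0.0092) were higher and the deubiquitinase Uchl5 was lower (-0.56, adjusted p = 0.042). In 3-44 the deubiquitinase Usp14 was lower (-0.47, adjusted p = 0.045), and in shRNA3T none was called. Of 8 genes for ubiquitin supply and for the unfoldase Vcp with its cofactors, Nploc4 was higher (0.58, adjusted p = 7.1e-05) and Ubb and Ufd1l were lower (-0.43 and -1.03, adjusted p = 0.025 and 0.028) in 4-18. The ubiquitin-activating enzyme Uba1 was lower in shRNA3T (-0.38, adjusted p = 0.018).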

How the data were processed

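RNA of 16 cultures, 4 of each group, was labelled with Cy3 and hybridized to single-colour Agilent rat 4x44K arrays. Spots were read by the authors using Feature Extraction 10.7.3.1. As deposited, the intensity values comprise the mean spot signal, the median local background and the processed signal, none of them scaled between arrays. Flags (other values) in the deposited files mark outlier spots and spots well above background. The authors also deposited a table of log2 values. Its decimal points had been lost, and once restored it equalled log2 of the median signal after normexp, without scaling between arrays. No spot of the proteasome probes was treated as saturated. Per the authors, LIMMA served for correction, scaling and testing.

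Here the mean signal was corrected with normexp (offset 50), control spots were dropped, arrays were quantile-normalized, outlier spots were set aside and spots of a probe were averaged. Missing values left 3 arrays in CN-10 for Psma3, Psmd2, Psmd9 and Psmg1 and in 3-44 for Psmc6, and 1 CN-10 array for the dimmer Psmg4 probe. Testing used limma 3.58.1 in R 4.3.3 on all 16 arrays, with 1 mean a group and Benjamini-Hochberg adjustment over all probes, and was tested on simulated data. A gene was represented by its probe with the highest mean, and was well above background where at least 50% of the spots were. Values on every array are given for the catalytic subunits and for the 5 called genes with the largest difference in each comparison with CN-10. Genes printed beyond these were chosen after their values were seen. The members and lists were chosen with earlier results of these data known. The number of arrays limits the precision. Alternatives were other scalings, background corrections, filters, probes, array weights, a block and the omission of arrays. Array files name genes by symbol, of which 46 of 47 matched RefSeq by symbol and 1 by synonym. Probe positions are on rn4 and promoters on GRCr8, and no coordinate was converted. The result of 1 listed gene is not reported here. Replicate numbers were taken to pair arrays of 2 groups where all 4 same-number correlations of deviations from the group means were over 0.1, which held for 3-44 and shRNA3T (0.10 to 0.32) and for no other comparison. This pairing comes from the data and not from the labels.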

Additional observations from a re-analysis of the deposited data

Results flagged for a closer look

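In 5 of 63 groups of 4 arrays, taken over 16 named proteasome genes, 1 array lay farther from the rest than Dixon's 95% limit allows. Chance marks about 1 group in 20, and all 5 arrays are replicate 1. Psma6 was at 15.87 on 3-44 replicate 1 and at 16.12 on shRNA3T replicate 1, each above its group. Psmb9 was at 13.43 on shRNA3T replicate 1 and Psmb7 at 13.60 on 3-44 replicate 1, also above their groups. Psmd10 was at 11.51 on shRNA3T replicate 1, below its group.

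With replicate 1 of every group left out, a choice made after seeing the data, 11 of the 47 genes were called lower in 3-44 and 16 in shRNA3T, where 6.86% and 8.81% of all probes were lower. With all arrays these shares were 4.37% and 6.85%. Psmc2, an ATPase of the cap, was then called lower in all 3 comparisons (-0.33, -0.46 and -0.57), while with all arrays it was at -0.20, -0.38 and -0.39 and not called.

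In 2 genes the comparison with CN-10 was called in opposite directions in 2 groups, and the groups differed when tested directly by limma. Psmb8 was 1.05 higher in 3-44 than in shRNA3T (adjusted p = 7e-06), although both carry shRNA3. Psmc5 was 1.05 higher in 4-18 than in shRNA3T (adjusted p = 3.02e-05).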

How the results depend on the processing

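Over all other settings, 289 counts of called genes stayed within 1.5 times and 59 did not, and among values of called genes 898 kept their call, 3 reversed and the others lost it. The reversed values, under the deposited values without scaling, were Psmb7 (-0.29), Psmc5 (-0.030) and Psmd3 (-0.27) in 4-18. Many of these settings omit an array of neither compared group, which cannot change a difference and alters only the shared spread, so the totals overstate stability. Only counts that moved are given next, against CN-10 unless another group is named. Scaling to the 75th percentile gave 2 higher and 3 lower in 3-44 and 0 higher in shRNA3T, with 7 lower in 4-18 against shRNA3T and 2 higher in 3-44 against shRNA3T (shares of all probes 2.53%, 4.17%, 4.97%, 9.07% and 4.41%). The same scaling centred on bright probes was chosen after seeing the data. It gave 3 lower in 3-44, 0 higher in shRNA3T and 2 higher in 3-44 against shRNA3T (all probes 4.58%, 4.85% and 4.24%). The deposited values gave 0 higher and 25 lower in 4-18, 0 higher and 0 lower in 3-44, and 0 higher and 1 lower in shRNA3T (all probes 1.12%, 14%, 0.211%, 0.478%, 0.645% and 0.81%). They also gave 0 higher in 4-18 against 3-44, 0 higher in 4-18 against shRNA3T and 1 higher in 3-44 against shRNA3T. Of all probes, 1.02%, 0.701% and 0.375% were higher there. Cyclic loess gave 0 higher in shRNA3T (all probes 5.9%). In 3-44, 2 were higher with normexp on the median signal (all probes 3.43%), with outlier spots kept (3.58%) and with the mean over probes (all genes 3.56%). With only probes above background on all arrays, 2 were higher in 3-44 (all such probes 7.22%) and 0 in shRNA3T (9.71%). Array weights gave 4 higher in 3-44, 20 lower in shRNA3T, and 15 higher and 2 lower in 3-44 against shRNA3T, where 7.33%, 14.3%, 12.6% and 12.9% of all probes were. With a 2-fold limit there were 0 higher and 5 lower in 4-18, 0 and 0 in 3-44, and 0 and 1 in shRNA3T. That limit left 0 higher and 7 lower in 4-18 against 3-44, 2 higher and 5 lower in 4-18 against shRNA3T, and 1 higher in 3-44 against shRNA3T. Of all probes, 5.91%, 1.40% and 2.29% passed it against CN-10 in either direction, and 4.81%, 4.32% and 2.00% between silenced groups. Without replicate 1 of every group, also chosen after seeing the data, 2 were higher and 11 lower in 3-44 (all probes 3.28% and 6.86%). In shRNA3T 0 were then higher and 16 lower (all probes 5.27% and 8.81%). A replicate block gave 3 higher in 3-44 (all probes 3.93%). Same-number arrays had correlations of deviations from -0.12 to 0.50 (median 0.15, against -0.032 for other pairs), all 6 between replicates 1 were at least 0.19, and 8 of 16 arrays correlated best with their own number. Every pair was over 0.1 in 3-44 against shRNA3T alone, so the block is given beside that comparison. Leaving out single arrays gave 4 to 5 higher and 11 to 15 lower in 4-18, 1 to 2 higher and 4 to 6 lower in 3-44, and 0 to 1 higher and 8 to 12 lower in shRNA3T. It gave 7 to 9 higher and 12 to 16 lower in 4-18 against 3-44, 11 to 13 higher and 8 to 12 lower in 4-18 against shRNA3T, and 3 to 7 higher and 0 lower in 3-44 against shRNA3T. The shares of all probes higher and lower were then 9.78% to 12.3% and 9.74% to 12.7% in 4-18. They were 2.17% to 4.01% and 2.99% to 4.97% in 3-44, and 3.58% to 5.68% and 5.09% to 7.69% in shRNA3T. Between 4-18 and 3-44 they were 10% to 12.8% and 8.5% to 10.3%. Between 4-18 and shRNA3T they were 9.11% to 12% and 7.2% to 9.66%, and between 3-44 and shRNA3T 3.84% to 5.92% and 3.8% to 5.97%. For the balance of subunits, the processed signal scaled to the 75th percentile turned Psmb8 over Psmb5 in shRNA3T to 0.042. It turned Psmb9 over Psmb6 in 4-18 to -0.37, and took Psmb10 over Psmb7 to -0.23 in 4-18 and 0.33 in 3-44. Over single omissions, Psmb8 over Psmb5 ran from 1.85 to 2.04, 0.54 to 0.64 and -0.28 to -0.02 in 4-18, 3-44 and shRNA3T. Psmb9 over Psmb6 ran from 0.07 to 0.32, -0.046 to 0.20 and 0.21 to 0.45, reversing in 3-44 without CN-10 replicate 3 (-0.03) or 4 (-0.046). Psmb10 over Psmb7 ran from -1.14 to -0.82, 0.42 to 0.73 and -0.18 to 0.13, reversing in shRNA3T without CN-10 replicate 1 (0.13) or 3 (0.02). These balances were not recomputed without the first replicates, since 3 against 3 arrays cannot reach the threshold. Why any of these values moved was not tested. Of 25 values of named genes that were not called, 10 changed sign under at least 1 setting. Signal near background limits Psmb11, whose differences have little meaning.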
